A study of Homo sapiens with 16 samples.

Results

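The genes described here encode the proteins that build the centromere and the kinetochore, and their RNA was followed in 2 human pancreatic cancer cell lines with and without gemcitabine. The set holds 31 protein-coding genes, taken by symbol from the 58735 genes listed for each line, and all 31 symbols were found. RNA was enriched for poly-A and sequenced in 16 libraries, with 4 libraries in each of 4 groups: untreated control BxPC3, BxPC3 with gemcitabine, untreated control PANC-1 and PANC-1 with gemcitabine. BxPC3 and PANC-1 are established lines from ductal adenocarcinoma of the pancreas, and gemcitabine is a deoxycytidine analogue that blocks DNA synthesis. The labels name the drug and the line and give no dose, no exposure time and no separate cultures, so the spread between the libraries of a group may be technical, and the p-values measure only that spread. No group carries an added transgene or deletion per the labels.

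The centromere is the stretch of each chromosome on which the kinetochore is built, and it is marked by nucleosomes that hold the histone H3 variant CENPA. HJURP is the chaperone that places CENPA on chromatin, and MIS18A and OIP5 (also called MIS18B) are parts of the complex that directs it there. A group of proteins named the constitutive centromere-associated network sits on this chromatin through the cell cycle and carries the KNL1, MIS12 and NDC80 complexes, of which NDC80 is the main microtubule binder. The SKA complex, the motor CENPE, CENPF and ZW10 act further out, where chromosomes are attached to the spindle. Many of these genes are transcribed mostly late in the cell cycle, between S phase and mitosis, in dividing cells of any tissue. In RNA from a whole culture, a larger share of cells that express such a gene and more of its RNA per cell cannot be told apart.

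In BxPC3, 26 of the 31 genes rose with gemcitabine, and NSL1, a subunit of the MIS12 complex, was the gene that fell. Over all 12215 genes tested in BxPC3, 37.3% rose and 36.1% fell at the same threshold, a Benjamini-Hochberg adjusted p under 0.05 in limma. CENPH, MIS12 and PMF1 did not pass the test. CENPP, at under 1 FPKM (reads per length of the gene and depth of the library) in every library, was not tested. In 27 genes the 4 gemcitabine libraries all lay above the 4 controls, against 34.3% of all genes tested, and in 0 genes did they all lie below, against 33.2%. The median log2 change of the 31 genes was 0.85, beside 0.0044 over all genes tested, and 12 rose by at least 1 on the log2 scale, beside 4.40% of all genes. These changes are on the scale log2(FPKM + 1), which understates the change of genes of low level, and a fold in the text is a ratio of mean FPKM. CENPE, which is in the counts of 26, 27 and 12, passed the filter on low values in BxPC3 only through its gemcitabine libraries. Its BxPC3 call is therefore a description only.

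In PANC-1, 24 of the 31 genes rose and NSL1 again fell, while 20.7% of the 12508 genes tested rose and 24.0% fell. MIS18A, CENPL, MIS12, PMF1 and SKA2 did not pass the test, and CENPP was not tested. The gemcitabine libraries all lay above the controls in 23 genes, against 21.3% of all genes tested, and all below in 1, against 24.5%. The median log2 change was 1.03, beside −0.02 over all genes tested, and 16 genes rose by at least 1, beside 3.21% of all genes. In 23 genes the rise passed the test in both lines, and in 0 genes did the 2 lines give opposite calls. The shares of all genes with such calls were not computed, so both counts are given as a description only. Across the 31 genes the log2 folds of the lines had a Pearson r of 0.80 and a Spearman rho of 0.78. These describe genes that share libraries and are not independent replicates.

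**Figure D1:**
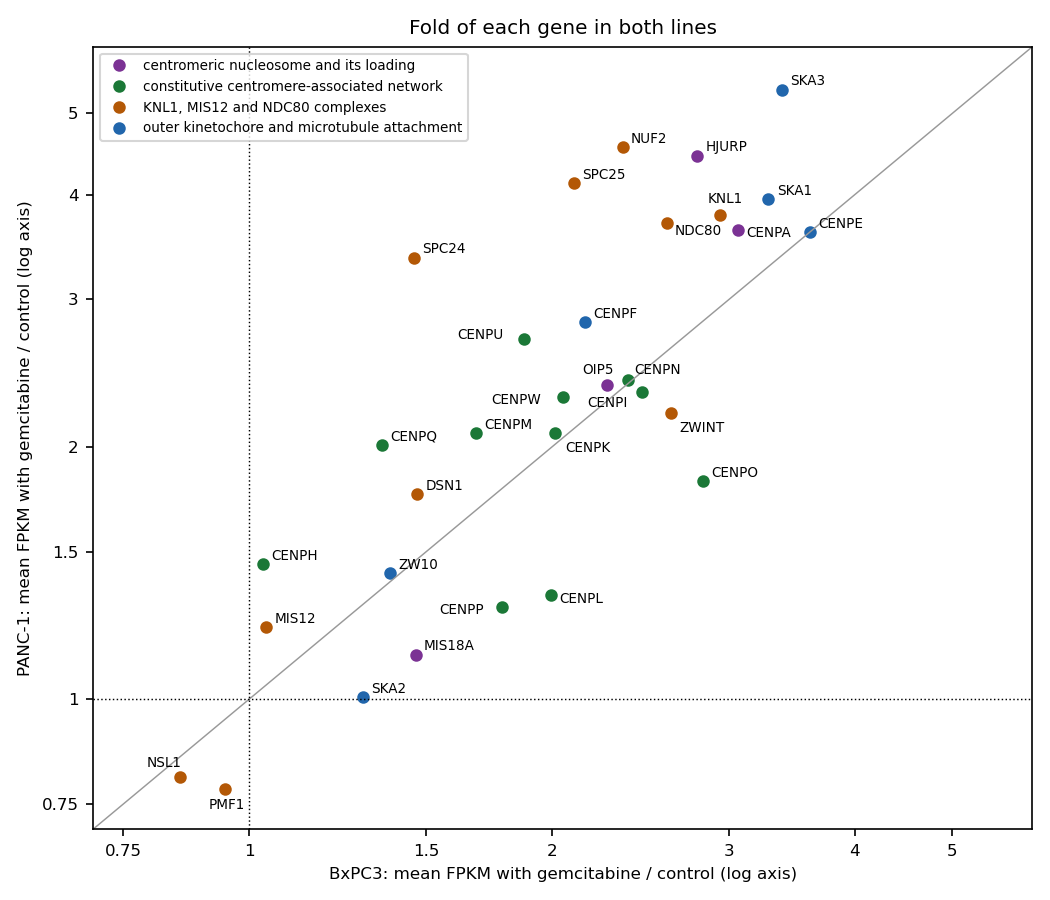
Ratio of mean FPKM with gemcitabine to mean control FPKM for each of the 31 genes, BxPC3 on the horizontal and PANC-1 on the vertical log axis, coloured by role, with the diagonal marking equal folds and dotted lines marking no change. SKA3 stands highest at 5.34-fold in PANC-1, and NSL1 and PMF1 lie below 1 in both lines.

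Before any comparison, libraries of a group were set against each other over all genes. PANC-1 gemcitabine replicate 1 stood farthest apart, with a chi-square per degree of freedom of 55.6 to 66.2 against the other 3, which were at 2.13 to 2.28 among themselves. BxPC3 control replicate 2 was at 14.3 to 16.9 against its group, where the others were at 2.07 to 2.78, and it lay above them in 16 of the 30 tested genes of the set. Without it the BxPC3 counts were again 26 higher and 1 lower. In PANC-1 gemcitabine replicate 1, genes among the 25% of highest GC content lay 0.452 above and those among the 25% of lowest GC content 0.423 below the group's other libraries on the log2 scale. The 31 genes are of low GC content, with a median of 42.5% beside 48.9% over tested genes, and this library lay below the other 3 of its group in 26 of them. It lay above the others in OIP5, CENPM, PMF1 and SPC24 and between them in CENPO. The shares of all genes with such places were not computed, here or for BxPC3 control replicate 2. Over the 31 genes the deviation of PANC-1 gemcitabine replicate 1 followed GC content, with a Pearson r of 0.82 and a Spearman rho of 0.74. This is a description across genes of that 1 library. Without it, 28 of the 31 genes rose in PANC-1 and 2 fell (NSL1 and PMF1), beside 32.8% and 37.0% of all genes tested, counts above those with all 4 libraries. MIS18A (log2 0.20 ± 0.07 SE, limma adjusted p = 0.0292), CENPL (log2 0.44 ± 0.06 SE, limma adjusted p = 5.27e-05), MIS12 (log2 0.35 ± 0.06 SE, limma adjusted p = 0.000201) and SKA2 (log2 0.13 ± 0.05 SE, limma adjusted p = 0.0334) were the genes whose rise passed without that library and not with all 8. With all 8 libraries and the trend with GC content removed, CENPL (log2 0.27, limma adjusted p = 0.0184) and MIS12 (log2 0.19, limma adjusted p = 0.0285) passed as well.

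**Figure D2:**
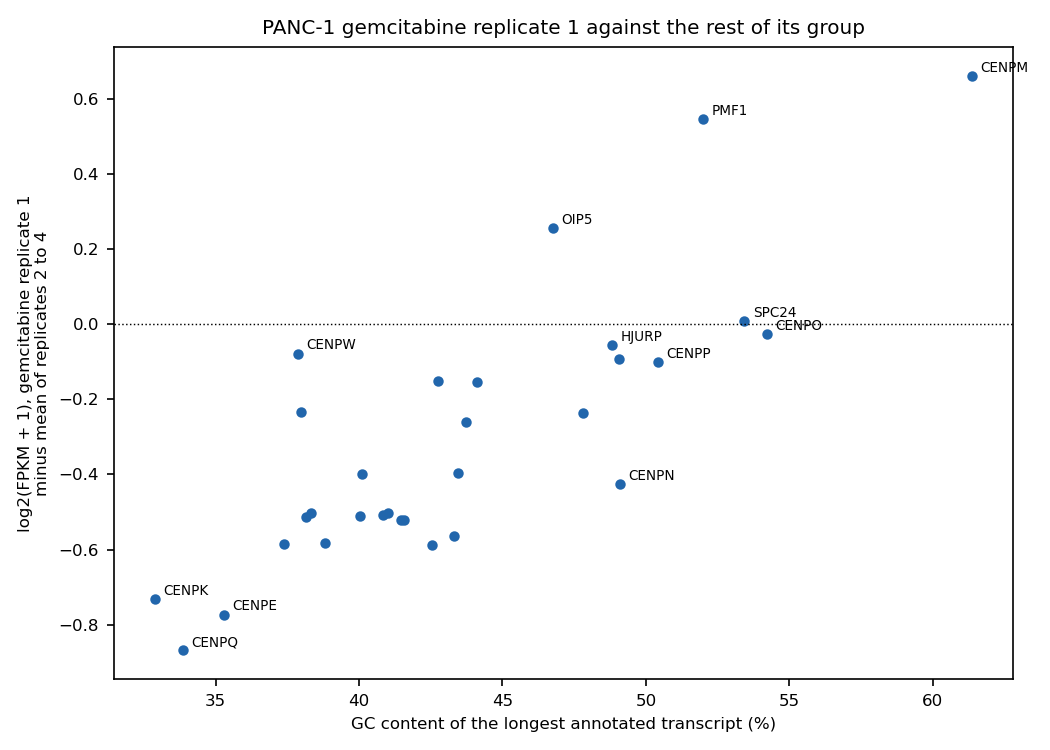
Deviation of PANC-1 gemcitabine replicate 1 from the mean of the group's other 3 libraries, in log2(FPKM + 1), against the GC content of the longest annotated transcript, 1 point for each of the 31 genes. Points run from CENPK, CENPQ and CENPE at the lower left, with the lowest GC content and the largest shortfall, to CENPM at the upper right, the gene of highest GC content at 61.4%.

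Depth was 22152034 to 37777222 reads in listed genes per library, and each value of these genes rested on 64 reads (SPC25 in a PANC-1 control) to 7416 reads (CENPF). Reads of SMAD4, a tumour suppressor gene known to be lost in BxPC3, were 0 in all BxPC3 libraries, while PANC-1 held 3.84 FPKM in controls. Epithelial and ductal markers (5 genes) summed to 2577 to 3220 FPKM in BxPC3 and 336.1 to 757.6 FPKM in PANC-1, where the higher sums were those of the gemcitabine libraries. The 4 blood cell markers summed to 7.18 to 8.60 FPKM in BxPC3 controls and 7.50 to 9.01 with gemcitabine, most of it CD14, and to 1.17 to 1.38 and 3.08 to 5.51 in PANC-1, while the means of PTPRC, the defining marker, were 0.0143 FPKM or less. The 4 fibroblast markers summed to 1.67 to 1.95 and 2.53 to 2.81 FPKM in BxPC3 and to 10.9 to 11.9 and 7.43 to 11.2 in PANC-1, nearly all of it COL1A1. CDH5, one of 3 endothelial markers, was 0.603 FPKM in BxPC3 controls and 5.76 with gemcitabine. It passed the filter on low values only through those gemcitabine libraries. PECAM1 and VWF were under 1 FPKM in both groups and were not tested. In contrast to CDH5 their means went down, from 0.756 to 0.132 FPKM for PECAM1 and from 0.151 to 0.112 for VWF. The summed endothelial markers were 1.38 to 1.61 and 5.59 to 6.29 FPKM in BxPC3 and at most 0.0821 FPKM in PANC-1, and the part of the marker changes in the results was not tested.

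The start sites of these genes were read next, since most of the genes moved in 1 direction. RefSeq promoters on GRCh38.p14, running from 250 bases before to 50 bases after the start, were found for 26 of the 31 genes, with 30 windows in all, and MIS18A, CENPH, CENPL, CENPM and KNL1 had no entry. The letters TTTGAA, a form of the core of the cell cycle genes homology region bound by the MuvB complex, were searched on both strands. Other forms of that core were not searched. CCAAT, the box bound by NF-Y, and the E2F-type words TTTGGCGC, TTTCCCGC and TTTCGCGC were also searched on both strands. In these windows 0 matches overlapped another. Shown here are 4 promoters with TTTGAA close to the start, of genes that rose in both lines, and that of NSL1, which fell in both. Capitals mark every match, with TTCAAA and ATTGG being matches on the opposite strand, and each sequence reads 5′ to 3′ on the strand of its gene.
CENPA promoter, chr2:26785806-26786105, plus strand: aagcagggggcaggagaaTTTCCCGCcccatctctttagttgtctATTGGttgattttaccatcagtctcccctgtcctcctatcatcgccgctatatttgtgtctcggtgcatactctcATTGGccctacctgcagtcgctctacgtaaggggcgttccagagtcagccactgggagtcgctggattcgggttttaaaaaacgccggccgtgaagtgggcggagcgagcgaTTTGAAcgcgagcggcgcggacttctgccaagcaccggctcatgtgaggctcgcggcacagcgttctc
CENPN promoter, chr16:81006964-81007263, plus strand: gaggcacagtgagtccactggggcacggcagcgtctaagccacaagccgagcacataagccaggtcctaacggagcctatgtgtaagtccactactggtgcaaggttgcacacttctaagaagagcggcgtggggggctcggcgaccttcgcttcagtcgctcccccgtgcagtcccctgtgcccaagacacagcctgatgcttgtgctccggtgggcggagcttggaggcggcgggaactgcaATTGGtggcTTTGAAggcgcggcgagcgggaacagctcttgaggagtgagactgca
NDC80 promoter, chr18:2571307-2571606, plus strand: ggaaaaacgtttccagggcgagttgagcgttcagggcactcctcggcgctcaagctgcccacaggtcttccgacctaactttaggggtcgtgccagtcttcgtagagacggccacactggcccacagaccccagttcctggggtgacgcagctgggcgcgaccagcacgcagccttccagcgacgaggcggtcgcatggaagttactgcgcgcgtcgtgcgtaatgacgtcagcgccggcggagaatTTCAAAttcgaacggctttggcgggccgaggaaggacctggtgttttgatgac
SKA3 promoter, chr13:21176503-21176802, minus strand: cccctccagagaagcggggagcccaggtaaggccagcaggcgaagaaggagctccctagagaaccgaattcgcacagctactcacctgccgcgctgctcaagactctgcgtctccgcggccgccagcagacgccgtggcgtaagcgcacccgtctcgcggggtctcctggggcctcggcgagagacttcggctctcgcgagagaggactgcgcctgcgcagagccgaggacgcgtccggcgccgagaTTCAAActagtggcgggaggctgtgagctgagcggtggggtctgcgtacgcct
NSL1 promoter, chr1:212791728-212792027, minus strand: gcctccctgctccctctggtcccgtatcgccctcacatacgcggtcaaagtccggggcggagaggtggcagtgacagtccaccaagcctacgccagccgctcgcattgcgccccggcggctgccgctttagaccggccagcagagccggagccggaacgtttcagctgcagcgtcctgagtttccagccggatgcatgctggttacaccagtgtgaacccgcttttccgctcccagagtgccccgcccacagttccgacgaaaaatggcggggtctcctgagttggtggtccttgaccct

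In CENPA the TTTGAA match began 18 bases before the start, in NDC80 and SKA3 3 bases before it, and in CENPN 3 bases after it. NSL1 held 0 of the words in its window, as did CENPE, CENPI and DSN1, which all rose in both lines. The CENPI window lies inside the gene as listed, as do some others, among them those of CENPA, NUF2 and SPC25. So does the CENPP window that held its CCAAT match. A window therefore need not cover the first start site of its gene. Of all 35116 promoters in the table, 54.6% held none of the words. TTTGAA was found in 12 of the 26 genes and in 43.3% of their windows, beside 15.2% of all promoters. A match within 50 bases of the start was found in 10 genes and 36.7% of windows, beside 4.62% of all promoters. CCAAT was found in 17 genes and 63.3% of windows, beside 34.6%, and an E2F-type word in CENPA, OIP5, CENPU and MIS12, or 16.7% of windows beside 2.74%. All 12 genes with TTTGAA rose in both lines, with median folds of 2.61 in BxPC3 and 3.66 in PANC-1. Of the 14 genes without it, 10 rose in BxPC3 and 9 in PANC-1, with median folds of 1.63 and 2.04. These 14 include CENPP, which was not tested in either line. Among all genes tested, 37.3% rose in BxPC3 and 20.7% in PANC-1. For CCAAT the medians ran the other way, at 2.01 in BxPC3 and 2.29 in PANC-1 for the 17 genes with it, and 2.60 and 3.61 for the 9 genes without it. A match is a description of letters, not of a bound site, and the difference between these gene groups was not tested.

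The genes that mark and load the centromere rose together in BxPC3, where 4 of 4 passed the test, and 3 of 4 passed it in PANC-1. Among all genes tested, 37.3% rose in BxPC3 and 20.7% in PANC-1. CENPA, the centromeric histone, was at 3.08, 3.91, 3.40 and 3.32 FPKM in the 4 BxPC3 controls and at 10.9, 10.1, 11.1 and 9.86 with gemcitabine. In PANC-1 it was at 3.03, 2.99, 3.47 and 3.36 in controls and at 10.1, 12.5, 12.4 and 11.6 with gemcitabine. The groups did not overlap in either line, and the rise was 3.06-fold in BxPC3 (1.38 ± 0.06 SE on the log2 scale, adjusted p = 2.81e-08 by limma) and 3.63-fold in PANC-1 (1.58 ± 0.08 SE on the log2 scale, adjusted p = 9.5e-07 by limma). The difference between the lines, here and below the PANC-1 change minus the BxPC3 change on the log2 scale, was 0.21 ± 0.10 SE, limma adjusted p = 0.101 for CENPA and did not pass the test. An exon of SLC35F6 on the same strand covers 6.96% of the CENPA exons, so some reads there cannot be assigned to 1 of the 2.

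HJURP, the chaperone of CENPA, was at 3.62, 3.71, 4.05 and 3.85 FPKM in BxPC3 controls and 10.2, 10.5, 10.4 and 11.4 with gemcitabine. PANC-1 controls held 6.37, 5.68, 5.996 and 6.42 FPKM and the gemcitabine libraries 26.4, 27.6, 28.00 and 26.9. Every treated library lay above every control of its line, by 2.79-fold in BxPC3 (1.27 ± 0.05 SE on the log2 scale, adjusted p = 6.24e-09 by limma) and 4.45-fold in PANC-1 (1.99 ± 0.06 SE on the log2 scale, adjusted p = 6.45e-08 by limma). The rise of HJURP was the larger in PANC-1, with a difference of 0.72 ± 0.07 SE, limma adjusted p = 3.42e-07.

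OIP5 and MIS18A act in the same loading step and parted from each other. OIP5 rose 2.27-fold in BxPC3 cells and 2.37-fold in PANC-1 cells, from control means of 5.37 ± 0.343 and 4.23 ± 0.877 FPKM (± SD, n = 4, as for all means below). The antisense RNA OIP5-AS1 overlaps 38.0% of the OIP5 exons. It went from 9.50 to 5.02 FPKM in BxPC3 and from 9.53 to 8.09 in PANC-1 as group means, while OIP5 rose, and whether the counting used strand is not given in the sources used here. MIS18A was already at 9.88 ± 0.781 FPKM in BxPC3 controls and reached 14.5 ± 0.946 (0.51 ± 0.06 SE on the log2 scale, adjusted p = 3.39e-05 by limma). In PANC-1, MIS18A was at 10.96, 9.38, 9.25 and 10.2 in controls and 10.3, 10.98, 10.8 and 12.9 with gemcitabine, and these overlapped (0.16 ± 0.08 SE on the log2 scale, adjusted p = 0.153 by limma). The change of MIS18A was smaller in PANC-1 (difference -0.35 ± 0.11 SE, limma adjusted p = 0.0121).

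**Figure D3:**
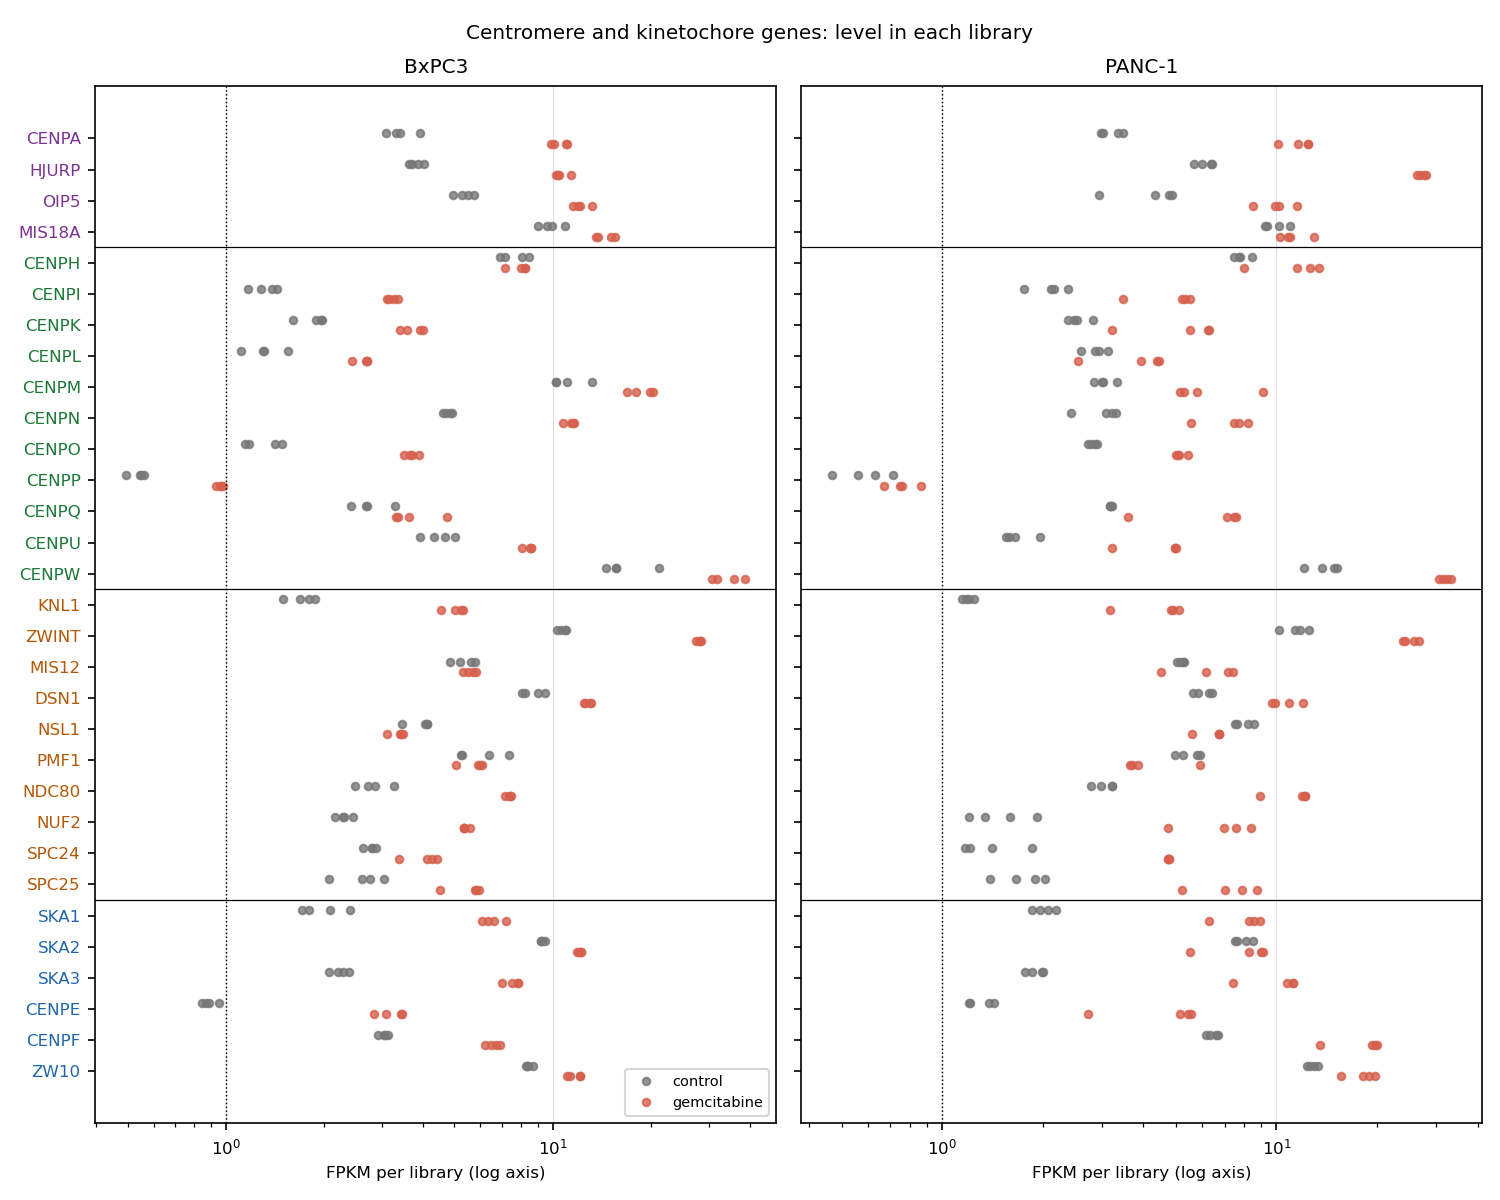
FPKM in each library on a log axis for the 31 genes, with BxPC3 in the left and PANC-1 in the right panel, 1 point per library, controls in grey and gemcitabine in red, and the dotted line at the 1 FPKM of the filter. CENPA, HJURP, NDC80 and SKA3 show treated points above all controls in both lines, while the NSL1 points of PANC-1 with gemcitabine lie below its controls.

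Of the 11 genes of the constitutive centromere-associated network, 9 rose in BxPC3 and 9 in PANC-1, beside 37.3% and 20.7% of all genes tested. CENPP of this network was not tested. The median folds of the network were 2.00 and 2.08, beside 2.05 and 2.29 over the 31 genes. CENPW, a histone-fold subunit, had the highest FPKM of the 31 genes in all 4 groups, and CENPP the lowest. CENPW was at 15.6, 21.2, 15.6 and 14.6 FPKM in BxPC3 controls, of which replicate 2 was the highest, and at 31.9, 30.7, 35.8 and 38.8 with gemcitabine. PANC-1 controls held 13.7, 12.1, 14.9 and 15.2 and treated libraries 30.6, 33.3, 31.6 and 32.3. Treated libraries were the higher in both lines, 2.05-fold (1.001 ± 0.11 SE on the log2 scale, adjusted p = 2.02e-05 by limma) and 2.29-fold (1.14 ± 0.08 SE on the log2 scale, adjusted p = 5.32e-06 by limma), and in PANC-1 this was the largest change of the network on the log2(FPKM + 1) scale, while by fold CENPU, CENPN and CENPI rose more.

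CENPN, the subunit that reads the CENPA nucleosome, had the largest change of the network in BxPC3 on the log2(FPKM + 1) scale, while by fold CENPO and CENPI rose more. CENPN was at 4.84, 4.70, 4.91 and 4.61 FPKM in BxPC3 controls and 11.6, 11.4, 10.8 and 11.6 with gemcitabine, and at 3.22, 2.43, 3.10 and 3.31 in PANC-1 controls and 5.55, 7.73, 7.46 and 8.23 in its gemcitabine libraries. The rise was 2.38-fold (1.10 ± 0.04 SE on the log2 scale, adjusted p = 4.91e-09 by limma) and 2.40-fold (1.03 ± 0.12 SE on the log2 scale, adjusted p = 0.000151 by limma), and gemcitabine replicate 1 was the lowest treated library in PANC-1. Its partner CENPL rose 1.997-fold in BxPC3 (0.65 ± 0.06 SE on the log2 scale, adjusted p = 5.89e-06 by limma) and was at 3.12, 2.86, 2.94 and 2.60 in PANC-1 controls and 2.56, 4.45, 3.94 and 4.39 with gemcitabine. That change did not pass the test (0.30 ± 0.13 SE on the log2 scale, adjusted p = 0.0979 by limma), and the difference between the lines, -0.35 ± 0.15 SE, limma adjusted p = 0.0622, did not pass it either. The difference of CENPL passed with a pseudocount of 0.1 (-0.58, limma adjusted p = 0.0241), with TPM scaling (-0.57, limma adjusted p = 0.0299), with limma-voom (-0.68, limma adjusted p = 0.0145) and with the GC trend removed (-0.36, limma adjusted p = 0.0103). It also passed without BxPC3 control replicate 4 or PANC-1 gemcitabine replicate 1, 2 or 4, with limma adjusted p of 0.0316 to 0.0467.

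CENPH, CENPI, CENPK and CENPM form 1 subcomplex and moved by different amounts. CENPH was at 8.04, 8.47, 6.89 and 7.15 FPKM in BxPC3 controls and 8.22, 8.01, 7.14 and 8.19 with gemcitabine, with overlapping groups (0.04 ± 0.07 SE on the log2 scale, adjusted p = 0.568 by limma). In PANC-1 it was at 7.79, 7.74, 7.46 and 8.44 in controls and 7.98, 13.4, 11.5 and 12.6 with gemcitabine, overlapping through replicate 1 (0.46 ± 0.14 SE on the log2 scale, adjusted p = 0.0231 by limma), with a difference between the lines of 0.42 ± 0.16 SE, limma adjusted p = 0.0392. The call of CENPH in PANC-1 was lost with no filter on low values, with a limma adjusted p of 0.0618, and on leaving out any library of the line other than control replicate 4 and gemcitabine replicate 1, with limma adjusted p of 0.0555 to 0.0630. The call of the difference was lost with no filter, with TPM scaling and with limma-voom (limma adjusted p = 0.0979, 0.101 and 0.0817). It was also lost without BxPC3 control replicates 1 or 2, BxPC3 gemcitabine replicates 2 or 3, or any PANC-1 library but the same pair, with limma adjusted p of 0.0550 to 0.0836. The PANC-1 change of CENPH without gemcitabine replicate 1 was log2 0.61 ± 0.05 SE, limma adjusted p = 2.71e-06. CENPI, CENPK and CENPM rose in both lines, by 2.46-fold, 2.01-fold and 1.68-fold in BxPC3 and by 2.33-fold, 2.08-fold and 2.08-fold in PANC-1. CENPM was the gene of this subcomplex for which replicate 1 was the highest, at 9.14, 5.30, 5.78 and 5.16 FPKM in the PANC-1 gemcitabine libraries.

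CENPO, CENPP, CENPQ and CENPU belong to a further subcomplex. CENPO rose 2.83-fold in BxPC3, from 1.30 ± 0.168 to 3.68 ± 0.157 FPKM (1.03 ± 0.06 SE on the log2 scale, adjusted p = 1.41e-07 by limma), and 1.82-fold in PANC-1, from 2.83 ± 0.0837 to 5.15 ± 0.200 (0.68 ± 0.05 SE on the log2 scale, adjusted p = 1.04e-05 by limma). The change of CENPO was smaller in PANC-1 (difference -0.34 ± 0.07 SE, limma adjusted p = 0.000976), and 27.0% of the CENPO exons overlap exons of ADCY3 on the opposite strand. ADCY3 itself was at 5.28 and 8.90 FPKM in BxPC3 and at 10.6 and 9.22 in PANC-1, in the order control and gemcitabine. CENPU, a docking site of the kinase PLK1, rose 1.88-fold in BxPC3 cells and 2.69-fold in PANC-1 cells. CENPQ rose 1.36-fold and 2.01-fold, and its call in BxPC3 was lost with no filter on low values (limma adjusted p = 0.0528). CENPP, which was not tested, was at 0.547, 0.559, 0.495 and 0.547 FPKM in BxPC3 controls and 0.956, 0.966, 0.932 and 0.978 with gemcitabine, and at 0.469, 0.629, 0.712 and 0.559 in PANC-1 controls and 0.672, 0.750, 0.761 and 0.866 in its gemcitabine libraries. Its treated libraries all lay above the controls in BxPC3 and overlapped them in PANC-1, and 38.0% of its exons overlap those of IPPK on the opposite strand. Exons of CMC2, PRIMPOL and DERL2 on the opposite strand overlap 12.8% of the CENPN, 11.7% of the CENPU and 9.53% of the MIS12 exons, and 4 pseudogenes are named after CENPI, CENPU and SKA2, so some reads of these genes may be shared.

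The KNL1, MIS12 and NDC80 complexes held genes that rose several-fold, the gene that fell and 2 that did not pass the test in either line. Of their 10 genes, 7 rose in each line, NSL1 fell in each line, and MIS12 and PMF1 did not pass the test. Among all genes tested, 37.3% rose and 36.1% fell in BxPC3, and 20.7% rose and 24.0% fell in PANC-1. All 4 genes of the NDC80 complex rose in both lines. NDC80, which gives the complex its name, was at 2.85, 3.26, 2.71 and 2.48 FPKM in BxPC3 controls and 7.40, 7.16, 7.35 and 7.46 with gemcitabine. In PANC-1, NDC80 was at 3.23, 2.79, 2.99 and 3.21 in controls and 8.94, 12.2, 11.9 and 12.2 with gemcitabine, where replicate 1 was the lowest. The rise was 2.60-fold (1.13 ± 0.06 SE on the log2 scale, adjusted p = 8.04e-08 by limma) and 3.70-fold (1.59 ± 0.10 SE on the log2 scale, adjusted p = 4.12e-06 by limma), with no overlap of groups in either line.

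NUF2, the coiled-coil partner of NDC80, was at 2.16, 2.30, 2.45 and 2.29 FPKM in BxPC3 controls and 5.57, 5.33, 5.33 and 5.37 with gemcitabine. In PANC-1 it was at 1.34, 1.20, 1.92 and 1.59 in controls and 4.75, 7.56, 6.96 and 8.37 with gemcitabine, the largest change of these complexes in that line at 4.56-fold (1.64 ± 0.15 SE on the log2 scale, adjusted p = 4.24e-05 by limma). In BxPC3 the rise was 2.35-fold (0.96 ± 0.04 SE on the log2 scale, adjusted p = 1.95e-08 by limma).

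SPC24 and SPC25 anchor the NDC80 complex to the inner kinetochore. SPC24 was at 2.62, 2.80, 2.80 and 2.89 FPKM in BxPC3 controls and 3.39, 4.12, 4.25 and 4.43 with gemcitabine, a rise of 1.46-fold (0.42 ± 0.07 SE on the log2 scale, adjusted p = 0.000251 by limma). The PANC-1 controls were at 1.41, 1.86, 1.21 and 1.17 and the treated libraries at 4.78, 4.74, 4.74 and 4.77, a rise of 3.36-fold (1.26 ± 0.09 SE on the log2 scale, adjusted p = 7.4e-06 by limma), and replicate 1 lay with the other treated libraries. SPC25 rose 2.10-fold in BxPC3, from 2.62 ± 0.409 to 5.50 ± 0.659 FPKM, and 4.13-fold in PANC-1, from 1.74 ± 0.279 to 7.20 ± 1.50 FPKM. Each of the 4 genes of the NDC80 complex changed more in PANC-1 than in BxPC3, with differences of 0.46 ± 0.12 SE, limma adjusted p = 0.00381 for NDC80, 0.68 ± 0.17 SE, limma adjusted p = 0.00263 for NUF2, 0.85 ± 0.11 SE, limma adjusted p = 1.03e-05 for SPC24 and 0.72 ± 0.18 SE, limma adjusted p = 0.00319 for SPC25. These differences were of the same direction and passed the test without PANC-1 gemcitabine replicate 1, at log2 0.56, 0.83, 0.85 and 0.84 in the same order.

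The MIS12 complex, the link between the centromere and the outer plate, did not rise as 1 body. DSN1 rose 1.47-fold in BxPC3, from 8.69 ± 0.681 to 12.8 ± 0.291 FPKM (0.51 ± 0.05 SE on the log2 scale, adjusted p = 9.04e-06 by limma), and 1.76-fold in PANC-1, from 6.04 ± 0.388 to 10.6 ± 1.06 (0.72 ± 0.08 SE on the log2 scale, adjusted p = 0.0001 by limma). NSL1 was at 4.05, 4.12, 3.47 and 4.12 FPKM in BxPC3 controls and 3.44, 3.12, 3.40 and 3.48 with gemcitabine, and the groups overlapped because control replicate 3 lay just below the highest treated library. In PANC-1, NSL1 was at 8.20, 7.64, 7.52 and 8.57 in controls and 5.58, 6.71, 6.75 and 6.74 with gemcitabine, and every treated library lay below every control. The fall was to 0.853 of the control mean in BxPC3 (-0.18 ± 0.06 SE on the log2 scale, adjusted p = 0.0146 by limma) and to 0.808 in PANC-1 (-0.27 ± 0.07 SE on the log2 scale, adjusted p = 0.0156 by limma). It is a small change near the threshold: the BxPC3 call was lost with values rescaled to TPM (limma adjusted p = 0.0968), and the PANC-1 call was lost without control replicate 4 (limma adjusted p = 0.0505) and with the replicate number as a block (limma adjusted p = 0.0526).

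MIS12 was at 5.36 ± 0.429 FPKM in BxPC3 controls and 5.57 ± 0.219 with gemcitabine (0.05 ± 0.05 SE on the log2 scale, adjusted p = 0.42 by limma), and at 5.18 ± 0.110 and 6.32 ± 1.33 in PANC-1 (0.22 ± 0.13 SE on the log2 scale, adjusted p = 0.181 by limma). PMF1 was at 5.23, 7.36, 5.28 and 6.39 FPKM in BxPC3 controls and 5.04, 5.90, 5.98 and 6.06 with gemcitabine (-0.06 ± 0.10 SE on the log2 scale, adjusted p = 0.591 by limma). In PANC-1, PMF1 was at 4.96, 5.80, 5.89 and 5.25 in controls and 5.92, 3.65, 3.86 and 3.70 with gemcitabine (-0.31 ± 0.13 SE on the log2 scale, adjusted p = 0.0807 by limma), and replicate 1 lay above the other treated libraries. Without that library PMF1 fell (log2 -0.45 ± 0.06 SE, limma adjusted p = 3.68e-05). The read-through transcript PMF1-BGLAP shares 23.3% of the PMF1 exons on the same strand.

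KNL1, the scaffold that recruits the spindle checkpoint, rose 2.94-fold in BxPC3 (1.15 ± 0.06 SE on the log2 scale, adjusted p = 6.9e-08 by limma) and 3.78-fold in PANC-1 (1.31 ± 0.12 SE on the log2 scale, adjusted p = 3.06e-05 by limma). Its levels were 1.68, 1.50, 1.87 and 1.79 FPKM in BxPC3 controls and 5.01, 5.31, 5.22 and 4.54 with gemcitabine, and 1.20, 1.24, 1.15 and 1.18 in PANC-1 controls and 3.17, 4.92, 4.83 and 5.12 in its gemcitabine libraries. ZWINT, which binds KNL1, had the largest change of these complexes in BxPC3 on the log2(FPKM + 1) scale, from 10.95, 10.3, 10.9 and 10.6 FPKM to 28.3, 28.5, 27.4 and 28.1. That rise was 2.63-fold (1.32 ± 0.03 SE on the log2 scale, adjusted p = 6.98e-10 by limma), beside 2.19-fold in PANC-1 (1.07 ± 0.07 SE on the log2 scale, adjusted p = 5.39e-06 by limma), from 11.5 ± 0.966 to 25.1 ± 1.29 FPKM. The change of ZWINT was smaller in PANC-1 (difference -0.24 ± 0.08 SE, limma adjusted p = 0.0157), a call lost with the replicate block (limma adjusted p = 0.0641).

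At the outer kinetochore, 6 of 6 genes rose in BxPC3 and 5 of 6 in PANC-1, beside 37.3% and 20.7% of all genes tested. The 6 in BxPC3 include CENPE, which passed the filter there only through its gemcitabine libraries. SKA3, a subunit of the complex that holds on to shrinking microtubule ends, had the largest change of the group in both lines on the log2(FPKM + 1) scale. By fold CENPE rose more than SKA3 in BxPC3. SKA3 was at 2.20, 2.07, 2.38 and 2.27 FPKM in BxPC3 controls and 6.99, 7.85, 7.51 and 7.84 with gemcitabine, and at 1.86, 1.98, 1.77 and 1.997 in PANC-1 controls and 7.40, 10.8, 11.2 and 11.2 in its gemcitabine libraries. Treated libraries all lay above controls, 3.38-fold in BxPC3 (1.40 ± 0.05 SE on the log2 scale, adjusted p = 4.77e-09 by limma) and 5.34-fold in PANC-1 (1.93 ± 0.12 SE on the log2 scale, adjusted p = 4.03e-06 by limma), and the change was larger in PANC-1 by 0.52 ± 0.13 SE, limma adjusted p = 0.0037. SKA1 rose 3.28-fold from 1.996 ± 0.313 FPKM in BxPC3 and 3.95-fold from 2.02 ± 0.145 FPKM in PANC-1.

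SKA2, the third subunit of the same complex, had the smallest log2 change of the outer kinetochore genes in both lines. It was at 9.23, 9.47, 9.20 and 9.24 FPKM in BxPC3 controls and 12.03, 11.8, 12.2 and 12.2 with gemcitabine, a rise of 1.30-fold (0.34 ± 0.03 SE on the log2 scale, adjusted p = 3.88e-06 by limma). In PANC-1 it was at 8.49, 7.64, 7.49 and 8.08 in controls and 5.53, 9.11, 8.27 and 9.002 with gemcitabine, with overlapping groups (-0.01 ± 0.14 SE on the log2 scale, adjusted p = 0.953 by limma). The change of SKA2 was smaller in PANC-1 (difference -0.36 ± 0.14 SE, limma adjusted p = 0.0488). That call was lost with a pseudocount of 0.1, no filter and the replicate block (limma adjusted p = 0.0565, 0.115 and 0.0875), and on leaving out any library other than PANC-1 gemcitabine replicates 1, 2 or 4, with limma adjusted p of 0.0527 to 0.0914. The FPKM values of the 3 subunits, which are per length, drew closer with the drug. The highest of the 3 means was 4.65 times the lowest in BxPC3 controls and 1.84 times with gemcitabine, and 4.17 and 1.27 times in PANC-1. Within single libraries the ratio ran from 4.19 to 5.39 in BxPC3 controls and from 1.72 to 2.00 with gemcitabine, and from 4.11 to 4.58 and from 1.26 to 1.35 in PANC-1, so treated and control libraries did not overlap. The MIS12 complex went the other way, from 2.20 to 3.80 times in BxPC3 and from 1.54 to 2.48 times in PANC-1. Its ratio within libraries was 1.99 to 2.61 in BxPC3 controls and 3.63 to 4.03 with gemcitabine, and 1.44 to 1.65 and 2.16 to 3.12 in PANC-1. In the NDC80 complex the ratio of means was 1.23 and 1.81 in BxPC3, and within libraries 1.14 to 1.42 and 1.68 to 2.18. In PANC-1 the ratio of means of that complex was 2.16 and 2.38, but within libraries it was 2.32 to 2.74 in controls and 1.88 to 2.58 with gemcitabine, so the groups overlapped.

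**Figure D4:**
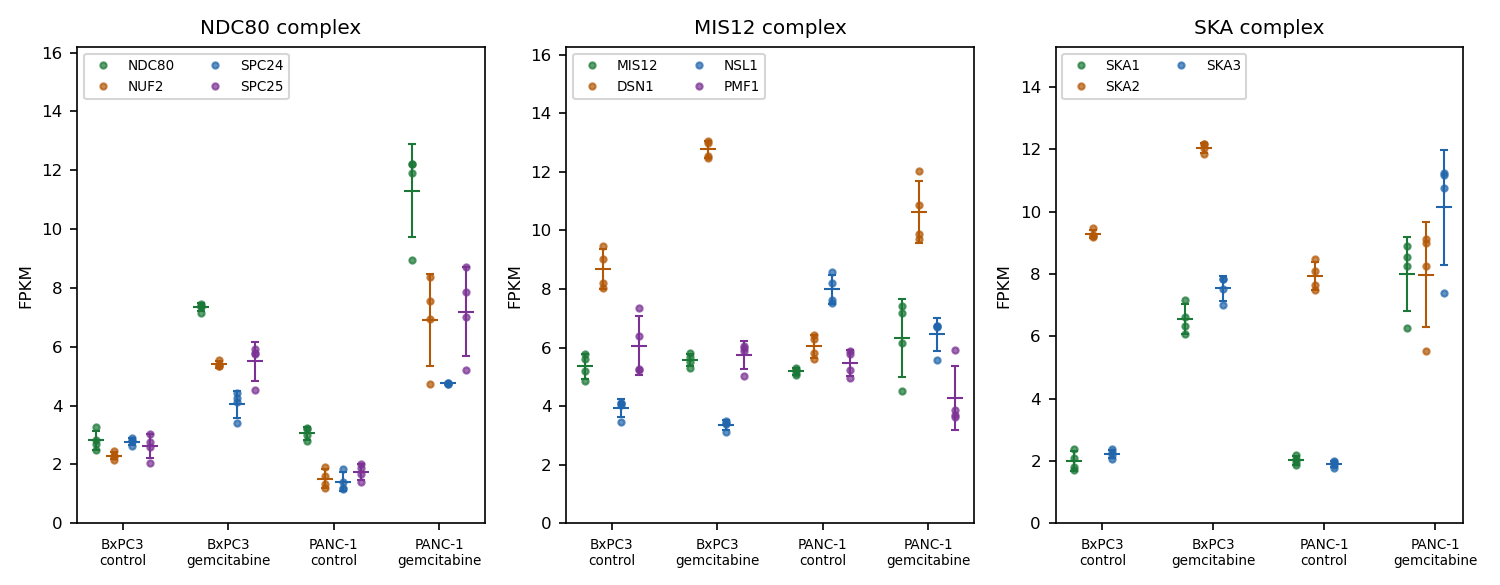
FPKM per library of the subunits of the SKA, MIS12 and NDC80 complexes in each group, 1 point per library, with horizontal marks at the group means and bars of 1 SD (n = 4). The SKA subunits spread 4.65-fold in BxPC3 controls and 1.84-fold with gemcitabine, while the MIS12 subunits spread 2.20-fold and 3.80-fold.

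CENPE, a kinesin motor that carries chromosomes to the spindle equator, was at 0.885, 0.843, 0.952 and 0.870 FPKM in BxPC3 controls and 3.45, 3.43, 3.09 and 2.83 with gemcitabine. The PANC-1 values were 1.38, 1.21, 1.20 and 1.43 in controls and 2.73, 5.54, 5.14 and 5.45 with gemcitabine. Treated libraries lay above controls in both lines, and replicate 1 was the lowest treated library of PANC-1. The rises were 3.61-fold in BxPC3 (1.15 ± 0.06 SE on the log2 scale, adjusted p = 5.37e-08 by limma) and 3.61-fold in PANC-1 (1.28 ± 0.17 SE on the log2 scale, adjusted p = 0.000342 by limma). In BxPC3 CENPE was tested only because its gemcitabine libraries passed the filter, so that p-value is a description only. With no filter on low values the BxPC3 adjusted p of CENPE was 1.59e-06 by limma. CENPF, a large coiled-coil protein of the outer kinetochore, rose 2.16-fold in BxPC3, from 3.05, 2.91, 3.05 and 3.13 to 6.68, 6.87, 6.45 and 6.21 FPKM, and 2.82-fold in PANC-1, from 6.58, 6.70, 6.14 and 6.32 to 13.5, 19.98, 19.3 and 19.7. The difference of CENPF between the lines was 0.45 ± 0.13 SE, limma adjusted p = 0.00782, and its call was lost with TPM scaling (0.34, limma adjusted p = 0.0903) and with limma-voom (0.30, limma adjusted p = 0.111). ZW10, which brings dynein to the kinetochore and also works in membrane traffic, rose 1.38-fold and 1.42-fold from control means of 8.43 ± 0.177 and 12.8 ± 0.421 FPKM.

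The change with gemcitabine was set against itself in the 2 lines by an interaction term over all 16 libraries. It was larger in PANC-1 for 8 of the 31 genes (HJURP, CENPH, NDC80, NUF2, SPC24, SPC25, SKA3 and CENPF) and smaller for 4 (MIS18A, CENPO, ZWINT and SKA2), and 18 did not pass the test. Over the 14134 genes tested, 25.2% had a larger and 26.6% a smaller change in PANC-1, so the share with a larger change is near the background. SPC24 had the largest difference and SKA2 the lowest. Without PANC-1 gemcitabine replicate 1 the counts were 17 larger and 6 smaller, beside 31.9% and 33.1% of all genes, which moves the first count by over 1.5 times.

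**Figure D5:**
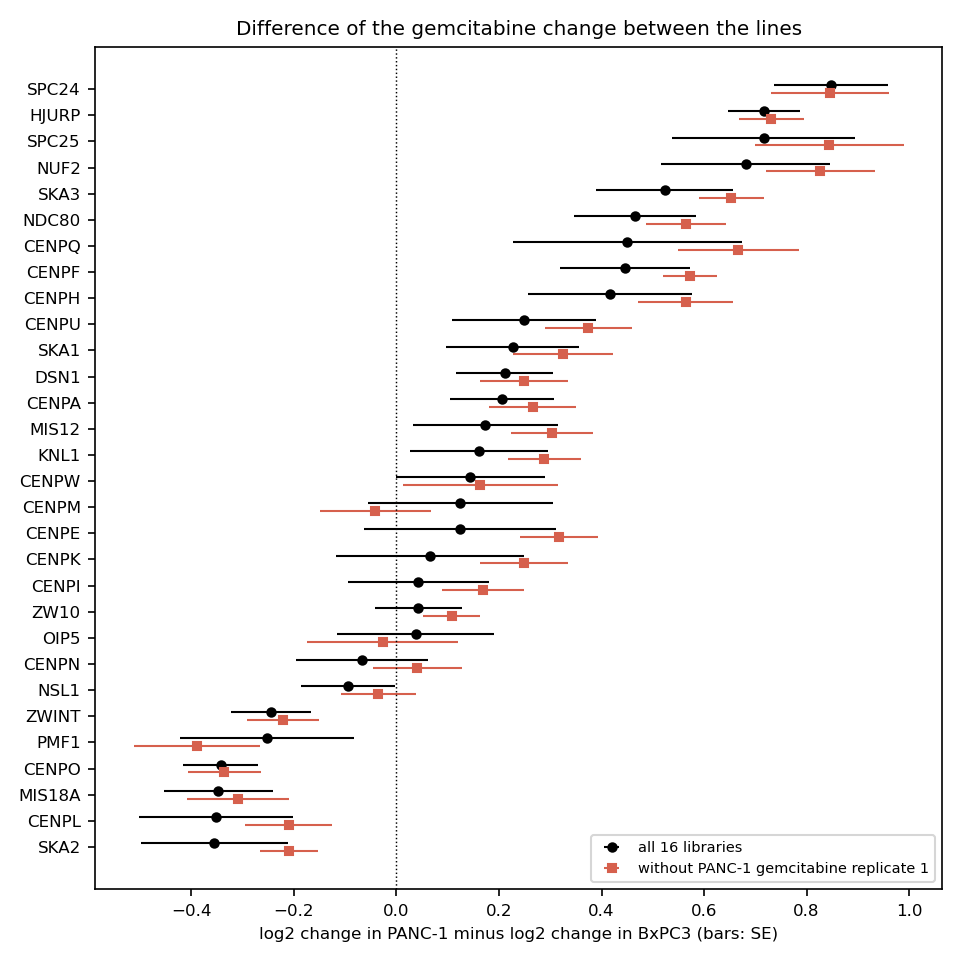
Difference between the lines in the log2 change of each tested gene (PANC-1 minus BxPC3) with bars of 1 standard error, with all 16 libraries and without PANC-1 gemcitabine replicate 1. The 4 genes of the NDC80 complex lie to the right of 0 in both, and SPC24 is at 0.85 in both.

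The level of a gene in controls and its fold went in opposite directions, with a Spearman rho of −0.476 in BxPC3 and −0.499 in PANC-1 over the 31 genes. This is a description, since the fold is computed from the same control values. In each line 18 genes were under 4 FPKM in controls, with median folds of 2.40 in BxPC3 and 3.03 in PANC-1, while the other 13 had median folds of 1.47 and 1.45. The 2 tables were normalized separately, so untreated levels are set side by side with no test. CENPM was at 11.2 FPKM in BxPC3 and 3.06 in PANC-1, and CENPU at 4.49 and 1.69. In the other direction, CENPF was at 3.04 and 6.43, NSL1 at 3.94 and 7.98, and HJURP at 3.81 and 6.12.

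Genes that work beside these proteins were read from a list of 36. In BxPC3, 27 of the 36 rose and 3 fell, beside 37.3% and 36.1% of all genes tested. In PANC-1, 22 rose and 1 fell, beside 20.7% and 24.0% of all genes tested. The chromosomal passenger complex and shugoshins, which correct and protect attachments, rose in 6 of 6 genes in both lines. CDCA8 (borealin) of that complex rose 2.78-fold in BxPC3 cells and 2.07-fold in PANC-1 cells. BIRC5 (survivin) rose 3.18-fold in BxPC3 (1.55 ± 0.06 SE on the log2 scale, adjusted p = 8.83e-09 by limma) and 3.20-fold in PANC-1 (1.59 ± 0.06 SE on the log2 scale, adjusted p = 1.72e-07 by limma). Of 7 spindle checkpoint genes, 7 rose in BxPC3 and 5 in PANC-1, among them the ATPase TRIP13 at 2.70-fold and 2.10-fold. The checkpoint kinase BUB1 rose 3.04-fold and 2.78-fold, and its relative BUB1B rose 2.36-fold and 3.50-fold, in the order BxPC3 and PANC-1. Of 14 genes of the corona and of microtubule ends, 11 rose and 1, BOD1, fell in BxPC3, and 8 rose in PANC-1, among them the depolymerase KIF2C at 2.49-fold and 3.91-fold. In the same order the spindle adaptor KNSTRN rose 1.98-fold and 2.30-fold, and SPAG5 rose 2.44-fold and 2.63-fold. BOD1, which holds a phosphatase in check, fell to 0.856 of its control mean in BxPC3 (limma adjusted p = 0.00939).

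The other 9 genes of the centromere network and CENPA loading had a median log2 change of 0.11 in BxPC3 and 0.21 in PANC-1, beside 0.85 and 1.03 for the 31 genes. Of these 9, 3 rose and 2 fell in BxPC3, beside 37.3% and 36.1% of all genes tested, so neither count is above the background. In PANC-1, 3 rose and 1 fell, beside 20.7% and 24.0% of all genes tested. CENPC, the protein that links CENPA chromatin to the MIS12 complex, went from 1.53 ± 0.0474 to 1.15 ± 0.0462 FPKM in BxPC3 and fell (-0.24 ± 0.04 SE on the log2 scale, adjusted p = 0.000501 by limma), while it did not pass the test in PANC-1 (0.07 ± 0.12 SE on the log2 scale, adjusted p = 0.698 by limma). RBBP4, a histone chaperone of several complexes, fell in both lines, to 0.816 of the control mean in BxPC3 (limma adjusted p = 5.12e-05) and 0.794 in PANC-1 (limma adjusted p = 0.0115). CENPX, a histone-fold protein, rose 1.74-fold in BxPC3 (0.77 ± 0.07 SE on the log2 scale, adjusted p = 4.72e-06 by limma) and did not pass the test in PANC-1 (-0.06 ± 0.09 SE on the log2 scale, adjusted p = 0.626 by limma), with a difference of -0.83 ± 0.12 SE, limma adjusted p = 3.64e-05. The histone chaperone RBBP7 rose 1.18-fold in PANC-1 and did not pass the test in BxPC3 (limma adjusted p = 0.0873), and the DNA-bound subunit CENPT rose 1.16-fold in BxPC3 cells and 1.37-fold in PANC-1 cells.

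Markers of dividing cells moved with the set. All 9 proliferation markers rose in BxPC3, where CCNE2 passed the filter on low values only through its gemcitabine libraries, and of the 8 tested in PANC-1 all rose. CCNB1, the mitotic cyclin B1, rose 3.01-fold in BxPC3 cells and 2.97-fold in PANC-1 cells, and cyclin A2 (CCNA2) rose 2.69-fold and 5.02-fold. Among 10 regulators that bind such promoters, 8 rose and 1 fell in BxPC3 and 5 rose and 2 fell in PANC-1. Over all genes tested, 37.3% rose and 36.1% fell in BxPC3, and 20.7% rose and 24.0% fell in PANC-1. MYBL2 rose 3.65-fold and 2.62-fold, FOXM1 rose 3.10-fold and 3.44-fold, and RBL2, the pocket protein p130, fell to 0.553 (limma adjusted p = 3.93e-07) and 0.756 of its control mean (limma adjusted p = 0.00284). LIN52, a MuvB subunit, fell to 0.640 of its control mean in PANC-1 (limma adjusted p = 8.97e-05) and rose 1.14-fold in BxPC3 (limma adjusted p = 0.033), with a difference of -0.68 ± 0.08 SE, limma adjusted p = 1.68e-06. The part of the share of dividing cells in the changes of the 31 genes was not tested.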

How the data were processed

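RNA was purified on columns from both lines, and poly-A RNA was sequenced, per the labels' protocols. The authors deposited 1 table for each line with FPKM per gene and library, per the file headers. The same tables hold the gene length in bases that was used here. Per the submitters' processing notes, CASAVA, HISAT2 and the mouse build mm10 were used, with no version named, yet all 58735 identifiers are human and match GENCODE 29. The sources used here name neither the read counter nor its strand setting. FPKM times length was a whole number of reads, within 0.02 reads, for 100.0% of the non-zero values of lower read number. Values of higher read number were rounded to whole reads without this check, and all reads together gave the depth. The libraries of a group differed by more than counting noise (lowest chi-square per degree of freedom 2.074).

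Groups and replicate numbers came from the titles. For each line, limma 3.58.1 (R 4.3.3, trend and robust) was run on log2(FPKM + 1). Genes entered when 4 libraries or more reached an FPKM of 1. P-values were adjusted by Benjamini-Hochberg over every gene tested, with a threshold of 0.05. The difference was the interaction over 16 libraries. The code was tested on simulated data. Medians over the 31 genes used a fit with no filter.

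The members and lists were chosen with earlier results of these data known. Given in full were, per role and line, the genes of largest and smallest log2 change, every gene that fell or did not pass, every gene whose change differed between lines, and CENPA. Of other lists the 2 genes of smallest p per direction were given. Values of some of these genes are not reported here. The alternatives set the pseudocount to 0.1, dropped the filter, rescaled by median ratio or to TPM, turned off trend and robust, kept protein-coding genes only, added a replicate block or left out each library. Limma-voom on the recovered reads and removal of a GC trend were chosen after seeing the data. Promoters came from RefSeq (GRCh38.p14).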

Additional observations from a re-analysis of the deposited data

Results flagged for a closer look

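In 19 of 124 groups of 4 libraries, 1 library lay far from the other 3 for a gene, where chance gives about 1 in 20. PANC-1 gemcitabine replicate 1 was that library in 11 of them, at 3.48 FPKM for CENPI, 9.14 for CENPM, 3.59 for CENPQ, 3.23 for CENPU, 3.17 for KNL1, 5.58 for NSL1, 5.92 for PMF1, 8.94 for NDC80, 7.40 for SKA3, 2.73 for CENPE and 13.5 for CENPF. It was the highest of its group for CENPM and PMF1 and the lowest for the other 9. In BxPC3 controls, replicate 2 held 21.2 FPKM of CENPW and 9.47 of SKA2, above the others, and replicate 3 held 3.47 of NSL1, below them. In BxPC3 with gemcitabine, replicate 1 held 2.42 FPKM of CENPL and 5.04 of PMF1, below the others, and 5.57 of NUF2, above them. Replicate 2 held 8.04 of CENPU and 4.52 of SPC25, both below the others.

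The change with gemcitabine differed between the lines for 12 genes by the interaction test, 8 larger and 4 smaller in PANC-1. Over all genes tested, 25.2% had a larger and 26.6% a smaller change in PANC-1. The count of 8 is near that background and the count of 4 is below it. On the log2 scale the change was larger in PANC-1 by 0.72 for HJURP, 0.42 for CENPH, 0.46 for NDC80, 0.68 for NUF2, 0.85 for SPC24, 0.72 for SPC25, 0.52 for SKA3 and 0.45 for CENPF. The difference was -0.35 for MIS18A, -0.34 for CENPO, -0.24 for ZWINT and -0.36 for SKA2, whose changes were the smaller in PANC-1.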

How the results depend on the processing

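The counts of genes that rose, 26 in BxPC3 and 24 in PANC-1, stayed within 1.5 times under every alternative run. The single fall, NSL1, was less firm: in BxPC3 0 genes fell with TPM scaling, and in PANC-1 0 fell with the replicate block, 2 with limma-voom, 2 with the GC trend removed and 0 to 2 as each library was left out. The count of larger changes in PANC-1, 8, ran from 7 to 17 as each library was left out, with 17 without PANC-1 gemcitabine replicate 1, and the count of smaller changes, 4, ran from 3 to 6. With the replicate block 2 changes were smaller. TPM scaling and limma-voom each gave 6 larger and 5 smaller changes, and removal of the GC trend gave 11 larger and 5 smaller. The deviations of same-numbered libraries of a line from their group means had r from -0.33 to 0.18 in BxPC3 and from -0.38 to 0.19 in PANC-1. Deviations from a mean of 4 libraries are bound to each other, so these r cannot decide whether the numbers pair samples.

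Values near 0 changed sign, and the cause was not tested. The log2 change of PMF1 in BxPC3 was 0.018 with TPM scaling and ran from -0.12 to 0.025 as each library was left out, and that of SKA2 in PANC-1 ran from -0.076 to 0.13. The difference between lines became -0.072 for CENPI and -0.010 for CENPE with a pseudocount of 0.1. With TPM scaling it became -0.084 for CENPI, -0.029 for CENPK and -0.036 for ZW10. With limma-voom it became -0.011 for OIP5, -0.15 for CENPI, -0.062 for CENPK, -0.11 for CENPE and -0.042 for ZW10. As each library was left out it ran from -0.091 to 0.11 for OIP5, from -0.012 to 0.17 for CENPI, from -0.013 to 0.25 for CENPK, from -0.041 to 0.20 for CENPM and from -0.14 to 0.040 for CENPN. Reads may hold PCR copies, and 64 reads at the lowest limit the precision of SPC25.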
